A study of Mus musculus with 8 samples.

Results

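Small nucleolar RNAs (snoRNAs) are short RNAs, mostly cut from the introns of other genes, that guide the chemical modification of ribosomal RNA in the nucleolus. Box C/D snoRNAs carry the sequence TGATGA near the start and CTGA near the end and direct ribose methylation by fibrillarin. Box H/ACA snoRNAs end in ACA a few bases before the last base and direct the conversion of uridine to pseudouridine by dyskerin. A few members of both classes take part in cutting the ribosomal RNA precursor instead. Intestinal epithelium renews itself continuously, and its dividing crypt cells make ribosomes at a high rate.

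Of the 40178 genes listed in the deposited tables, 455 were snoRNA genes, and the 61 described here were selected on their counts, with at least 40 reads summed over the 4 libraries of one tissue. All 61 passed in the colon, 36 of them passed in the ileum as well, and 0 passed in the ileum alone. The choice therefore used the level in the colon, and what follows for the comparison of the tissues is said there. The members nearest to the limit in the colon were AF357399 with 40 reads, Snord72 with 41 and Gm24091 with 41, and the nearest snoRNAs left out were Gm23297, Gm26175 and Snord98 with 39 reads each. In the ileum Gm24620, Gm25945 and Gm24494 had 40, 42 and 43 reads, while Gm22516 had 39 and Snord98 and Snord118 had 38 each.

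The study asked what the RNA helicase DDX5, which takes part in transcription, splicing and RNA processing, does in the epithelium of the gut. Epithelial cells were taken from the colon and the ileum of 4 mice aged 8 weeks, 2 pairs of a WT and a knockout littermate kept in shared cages, all carrying Cre recombinase under the Villin1 promoter, which is active in the epithelium of both tissues. The WT group had 2 mice with intact Ddx5 (Ddx5+/+ Villin1Cre+) and the DDX5ΔIEC group, called knockout below, had 2 mice with both copies floxed (Ddx5 fl/fl Villin1Cre+). Each mouse gave 1 colon and 1 ileum library of ribosome-depleted RNA, 8 in all, so that every group was 2 mice (the labels do not say whether a replicate number marks a pair) and an exact permutation test of 2 against 2 cannot go below 0.333. Levels are given as CPM, the count of a gene relative to the total of its library, scaled over the 8 libraries by the trimmed mean of M-values (TMM). Differences are log2 fold changes from edgeR's quasi-likelihood test across all genes, and a member was called by the criterion of the study, a log2 fold change of at least 0.5 either way at an unadjusted p under 0.05.

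The libraries held 11571061 to 22984283 counts, and the members took between 0.0107% (95% Wilson interval 0.0101 to 0.0113) of the counts in knockout ileum replicate 2 and 0.0312% (0.0303 to 0.0320) in knockout colon replicate 1. These intervals cover counting error only. Ddx5 stood at 770 and 705 CPM in the WT colon and 367 and 354 CPM in the knockout colon, and at 699 CPM in both WT ileum libraries against 340 and 326 CPM. Its log2 fold change was -1.04 in the colon (edgeR adjusted p = 0.087) and -1.07 in the ileum (adjusted p = 0.027). The 6 epithelial markers summed to 8362 to 15285 CPM and the 7 leukocyte markers to 6.34 to 74.95 CPM, and in the colon the leukocyte sum was 30.6 and 24.9 CPM in WT against 6.34 and 14.3 CPM in the knockout, and the part of this in the colon results was not tested. The 6 markers of stroma and vessels summed to 2.56 to 13.6 CPM and the 5 markers of cycling crypt cells to 491 and 519 CPM in the WT colon, 340 and 509 CPM in the knockout colon, 1378 and 1374 CPM in the WT ileum and 1059 and 1471 CPM in the knockout ileum. Replicate 1 was thus the lowest knockout library in both tissues, and the part of this in the differences between the knockout libraries was not tested. The 4 ileal markers summed to 170 to 340 CPM in the colon and 4184 to 8720 CPM in the ileum, and the 4 colonic markers to 3752 to 4925 CPM in the colon and 126 to 173 CPM in the ileum. Knockout ileum replicate 2 stood apart, with 19.5% of its counts on 3 repeat-like genes against 0.000956% to 4.05% in the other libraries, so ileal results are also given without it.

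The sequences of the members on which the results turn are shown here from the GENCODE M21 transcripts of the GRCm38 build, which is the build of the tables (mm10). Capitals mark TGATGA in the first 25 bases and CTGA in the last 20 bases of a box C/D member, or ACA lying 2 to 4 bases before the end of a box H/ACA member, all read on the strand of the RNA. Snora73b and Gm26448 are related, and were the most and the fourth most counted members.
Snora73b: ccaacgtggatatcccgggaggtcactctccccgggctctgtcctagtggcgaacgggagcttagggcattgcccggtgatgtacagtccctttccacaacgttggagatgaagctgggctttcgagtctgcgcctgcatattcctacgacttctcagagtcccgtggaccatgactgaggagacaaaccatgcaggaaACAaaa
Gm26448: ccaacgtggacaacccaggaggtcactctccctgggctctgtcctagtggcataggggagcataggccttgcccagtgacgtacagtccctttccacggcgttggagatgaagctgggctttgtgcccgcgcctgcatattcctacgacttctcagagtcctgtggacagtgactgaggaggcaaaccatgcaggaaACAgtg
Snora73b lies at chr4:132352322-132352526 on the minus strand in an intron of the noncoding host gene Snhg3, and Gm26448 at chr9:120129351-120129553 on the plus strand in an intron of Rpsa, which encodes a protein of the small ribosomal subunit. Their 205 and 203 bases matched at 87.8% of aligned positions. An exon of Gm17300 lies over Snora73b on the other strand. The strand setting of the counting was not stated, so reads of both genes may not have been told apart.

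Snord17 and Gm24339 carried the most counts among box C/D members.
Snord17: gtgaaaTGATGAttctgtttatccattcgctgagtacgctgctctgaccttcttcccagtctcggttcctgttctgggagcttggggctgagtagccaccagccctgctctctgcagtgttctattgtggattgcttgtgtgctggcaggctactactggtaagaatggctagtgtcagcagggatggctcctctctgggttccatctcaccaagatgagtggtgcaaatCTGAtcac
Gm24339: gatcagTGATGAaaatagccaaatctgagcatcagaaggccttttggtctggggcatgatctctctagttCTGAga
Snord17 is at chr2:144265979-144266216 (minus strand) in Snx5, a sorting nexin gene. Gm24339 is at chr9:15326464-15326539 (minus strand) in Cep295, a centriole gene, and Scarna9, the only member named as a Cajal body RNA, lies 130 bases from it in the same host.

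The 4 members that were called in the knockout ileum are shown next, because the ileal result rests on them.
Gm24336: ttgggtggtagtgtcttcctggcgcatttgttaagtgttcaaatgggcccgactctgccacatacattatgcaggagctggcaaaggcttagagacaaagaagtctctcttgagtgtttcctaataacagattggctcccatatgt
Gm24727: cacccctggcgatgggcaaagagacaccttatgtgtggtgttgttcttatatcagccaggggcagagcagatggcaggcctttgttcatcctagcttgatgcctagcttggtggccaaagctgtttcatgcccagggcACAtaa
Gm26493: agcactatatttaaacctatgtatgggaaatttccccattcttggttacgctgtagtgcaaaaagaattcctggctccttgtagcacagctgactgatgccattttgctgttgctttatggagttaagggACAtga
Gm24119: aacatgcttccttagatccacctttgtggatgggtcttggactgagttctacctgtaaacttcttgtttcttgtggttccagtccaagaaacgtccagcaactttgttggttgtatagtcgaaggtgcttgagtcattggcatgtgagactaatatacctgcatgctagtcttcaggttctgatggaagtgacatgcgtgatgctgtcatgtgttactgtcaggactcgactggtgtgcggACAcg
Gm24336 is at chr19:44113979-44114124 (minus strand) in Cwf19l1, Gm24727 at chr8:33691801-33691944 (plus strand) in Gsr, which encodes glutathione reductase, Gm26493 at chr8:95746060-95746195 (minus strand) in Cnot1, the scaffold of the CCR4-NOT deadenylase, and Gm24119 at chr10:91118291-91118536 (minus strand) in Slc25a3, the mitochondrial phosphate carrier. Gm24336 held none of the boxes in the windows searched, which says only that those letters were not there.

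Gm24727 has close relatives among the members, and these are shown because their levels in the tissues went different ways.
Gm25291: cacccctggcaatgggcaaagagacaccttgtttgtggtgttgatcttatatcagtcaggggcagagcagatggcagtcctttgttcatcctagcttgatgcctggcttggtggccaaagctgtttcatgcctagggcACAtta
Gm25117: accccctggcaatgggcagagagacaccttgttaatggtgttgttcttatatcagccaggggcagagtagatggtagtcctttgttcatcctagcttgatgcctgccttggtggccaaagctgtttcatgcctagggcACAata
Gm25291 is at chr11:51737779-51737922 (minus strand) in Sec24a, a coat protein of vesicles leaving the endoplasmic reticulum, and Gm25117 at chr10:111481493-111481636 (plus strand) in Nap1l1, a histone chaperone. Gm24727 matched Gm25291 at 93.8% and Gm25117 at 89.0% of positions, and Gm25291 matched Gm25117 at 92.4%.

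By the symbol, 14 members were box C/D, 9 box H/ACA and 1 a Cajal body RNA, while 37 had symbols that name no class. For those the class was read from the sequence. Box C/D needed CTGA and TGATGA with up to 1 mismatch, and box H/ACA needed only ACA near the end. With these, 22 members were box C/D, 32 box H/ACA, 1 a Cajal body RNA and 6 met neither rule. Of the 61 members, 15 (24.6%) held TGATGA in the first 25 bases, against 21.8% of all 1507 annotated snoRNA transcripts. CTGA in the last 20 bases was held by 25 members (41.0%, against 35.4%), and ACA near the end by 34 (55.7%, against 43.5%). Members measured 65 to 246 bases with a median of 132, and the other snoRNA rows had a median of 129.

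A same-strand host gene held 56 of the 61 members, and for 51 of these members the host was protein coding. There were 49 distinct hosts, since 14 members shared one, and 13 members lay in genes of ribosomal proteins. No host was found for Snord118 (the box C/D RNA U8, needed for maturation of the large subunit RNA), Snord13, Snord104, Snora17 and Snora57. Only Gm24616, in Eif4a2, overlapped an annotated exon on its own strand. Reads from unspliced host RNA fall on an intronic snoRNA too, and their share was not measured.

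Because reads were counted only where they mapped to 1 place, reads that fit several copies were lost. Snora73a, in the same host as Snora73b and identical to it at 96.6% of positions, had 18 reads over the 8 libraries. Gm22154 and Gm25788, which both lie in Pabpc4, were identical at 97.0% of positions, and Gm25788 was identical at 97.7% to Gm24620 in Kif13a. Gm24727 had 3 annotated snoRNA genes at 90% identity or more, the closest of them Gm23123 at 98.6% with 3 reads. The values of such members are uncertain to that extent.

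Counts were concentrated in a few members, and the 10 most counted took 66.7% to 73.7% of the members' reads in every library. Per kilobase, the highest mean levels over the 8 libraries were 206 CPM per kilobase for Snora73b, 115 for Gm24339, 104 for Snord17, 99.4 for Gm24336 and 63.4 for Gm26448. The lowest of the 61 was AF357399 with 3.44 CPM per kilobase. In the knockout ileum most members were thinly covered, and 36 and 38 of them had fewer than 10 reads in the 2 libraries. This held for 7 and 24 members in WT ileum replicates 1 and 2, and for 3 to 9 in the colon libraries. The 2 knockout ileum libraries also had the lowest total counts.

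**Figure D1:**
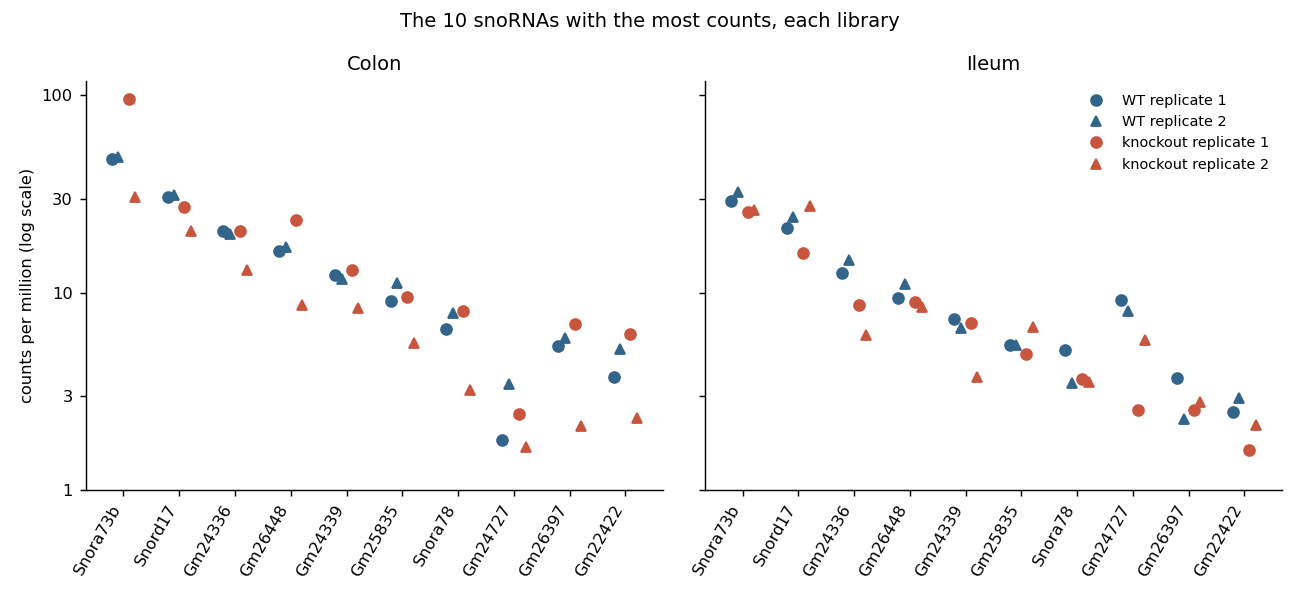
Level in CPM (log scale) of the 10 snoRNAs with the most counts, with the colon on the left and the ileum on the right, one point per library. In the colon the knockout libraries lie above and below the WT pair for Snora73b (96.4 and 30.4 against 47.8 and 48.9), while in the ileum both knockout libraries lie below both WT libraries for Gm24336.

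In the colon none of the 61 members differed between knockout and WT by the criterion of the study, in either direction. Among all 15362 genes tested the criterion called 3.67% lower and 3.04% higher, and by edgeR's adjusted p under 0.05 it called 0 members and 0 genes. Of the members, 43 had a log2 fold change below 0, and the median was -0.22 against 0.00 for all genes. Only Snord17 had an unadjusted p under 0.05, and its fold change lay inside the limit. DESeq2 also called 0 members by the criterion.

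The most counted member, Snora73b, is of the U17 family, which takes part in cutting the ribosomal RNA precursor. It stood at 47.8 and 48.9 CPM in the 2 WT colon libraries, and at 96.4 and 30.4 CPM in the 2 knockout colon libraries. The knockout libraries thus lay on both sides of the WT pair, and the log2 fold change was 0.16 (SE 0.41, edgeR adjusted p = 0.89). Its relative Gm26448 had the same order, with 16.2 and 17.0 CPM in WT and 23.4 and 8.60 CPM in the knockout. Snora78, Gm26397 and Gm22422, further box H/ACA members, also had the knockout pair on both sides of WT.

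Snord17 differed less between the knockout libraries. It stood at 30.6 and 31.1 CPM in the WT colon and at 27.3 and 20.6 CPM in the knockout, with both knockout libraries lower. Its log2 fold change was -0.39 (SE 0.14, unadjusted p = 0.039, edgeR adjusted p = 0.40), or 76.2% of WT. Gm24336 had 20.6 and 19.8 CPM in WT against 20.6 and 13.02 CPM in the knockout, where only replicate 2 was lower. The box C/D members Gm24339 and Gm25835 had log2 fold changes of -0.21 and -0.48 with overlapping groups. In all, 7 of the 61 members had both knockout colon libraries below both WT libraries and 3 had both above, against 20.8% below and 23.8% above of all genes tested.

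The 2 knockout colon libraries differed from each other across the members. Replicate 1 was higher than replicate 2 for 48 of the 61 members (78.7%), against 50.1% of all genes tested, and the median log2 ratio of replicate 1 to replicate 2 was 0.46 against 0.00 for all genes. In the WT colon the median ratio of the members was -0.14. Of the 32 box H/ACA members 28 were higher in knockout replicate 1, with a median log2 ratio of 0.63, and of the 22 box C/D members 16 were, with a median of 0.38. For 23 members knockout replicate 1 was above and replicate 2 below both WT libraries, against 9.20% of all genes, and the opposite held for 1 member, against 9.35%.

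The colon calls changed with the knockout library used. In each fit that leaves out a library one arm is a single mouse, so the spread comes from the other pair and the lone library is assumed to vary like it. Without WT replicate 1 (1.95% of all genes lower, 1.8% higher) and without WT replicate 2 (2.37% lower, 1.85% higher) 0 members were called. Without knockout replicate 1, in a fit of genotype alone, 14 members were called lower and 0 higher (4.24% and 3.93% of all genes), 10 of them at edgeR's adjusted p under 0.05, among them Snora73b, Snord17, Gm24336, Gm26448, Gm25835, Snora78, Gm26397 and Gm22422. Without knockout replicate 2, 2 members were called lower and 2 higher (9.03% and 6% of all genes), the higher ones being Snora73b and Snord118. At edgeR's adjusted p under 0.05 that fit had 0 lower and 3 higher, the third being Gm26448. The median of the members was -0.54 in the first case and 0.13 in the second.

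The sum of the members' levels showed the same. It was 214 and 232 CPM in the WT colon (mean 223 ± 12.2, SD, n = 2) and 290 and 144 CPM in the knockout colon (217 ± 104, SD, n = 2). Box H/ACA members summed to 119 and 133 CPM in WT against 192 and 75.4 CPM in the knockout, and box C/D members to 67.7 and 71.4 CPM against 69.95 and 48.02 CPM. Box H/ACA members thus went both ways from WT, while box C/D members were near the WT level in replicate 1 and below it in replicate 2. Without Snora73b the members summed to 166 and 183 CPM in WT and 194 and 113 CPM in the knockout.

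Other classes of short RNA had their highest and lowest colon sums in the same knockout libraries. Genes typed miRNA summed to 17319 and 15954 CPM in the WT colon and to 31870 and 6796 CPM in the knockout, and misc_RNA to 10269 and 9818 CPM against 13934 and 8733 CPM. Most of the misc_RNA sum was 1 gene, Rn7sk, at 9743 and 9254 CPM in WT against 13287 and 8269 CPM in the knockout. The scaRNA genes summed to 294 and 307 CPM against 406 and 289 CPM. The snRNA genes followed in part, with 123 and 179 CPM in WT and 170 and 112 CPM in the knockout. Their lowest sum was in knockout replicate 2, but their highest was in WT replicate 2. Per the labels the RNA was purified with a Qiagen RNeasy kit, whose silica columns in general recover short RNAs incompletely. Whether that recovery took part in the differences between these libraries was not tested.

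**Figure D2:**
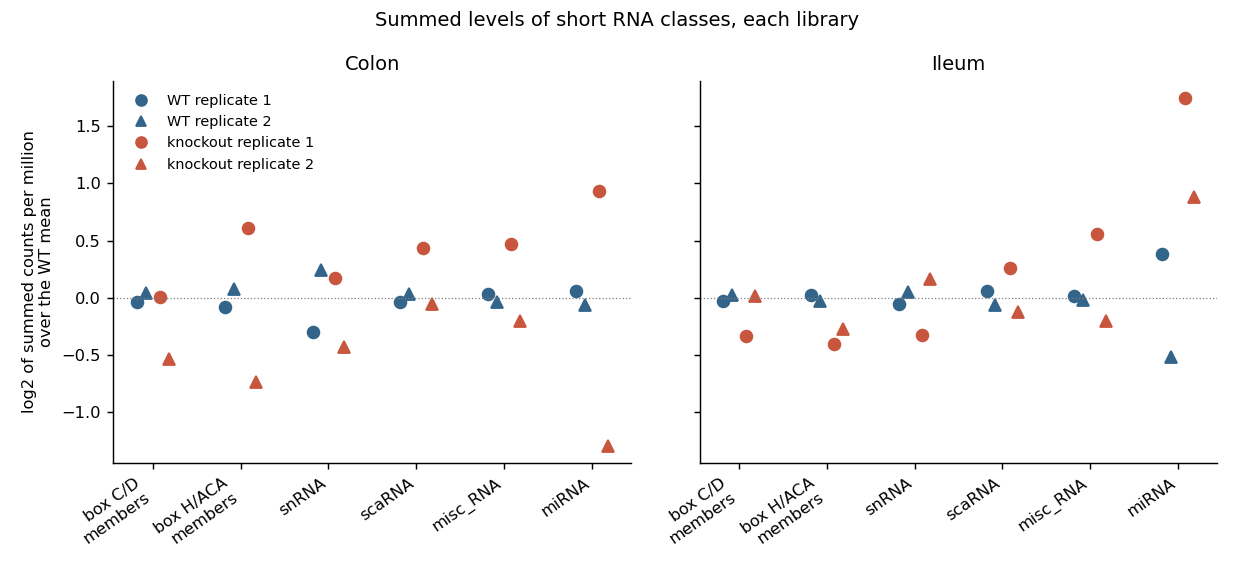
Log2 of the summed CPM of each class of short RNA over the WT mean of the tissue, one point per library, with the colon on the left and the ileum on the right. In the colon knockout replicate 1 is highest and replicate 2 lowest for box H/ACA members, scaRNA, misc_RNA and miRNA, and in the ileum both knockout libraries are below WT for box H/ACA members.

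In the ileum 4 members, Gm24336, Gm24727, Gm26493 and Gm24119, were lower in the knockout by the criterion of the study and 0 were higher. Of the 61 members, 33 had reads enough to be tested, which a member could reach through the libraries of 1 genotype alone. Of all 14068 genes tested the criterion called 3.48% lower and 3.87% higher. By edgeR's adjusted p under 0.05 it called 0 members, while 0.697% of all genes passed. Of the 33 members 28 had a log2 fold change below 0, and their median was -0.27 against 0.00 for all genes. Both knockout ileum libraries were below both WT libraries for 14 of the 33 (42.4%) and above for 1 (Snora57), against 20.8% and 18.6% of all genes tested. A member that entered through its WT libraries alone, such as Gm25945, Gm25848 or Gm24494, was favoured to lie lower in the knockout. The counts of lower members and their median were thus in part set by the filter.

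Gm24336 stood at 12.6 and 14.7 CPM in the WT ileum (273 and 212 reads) and at 8.61 and 6.09 CPM in the knockout (92 and 57 reads). The groups did not overlap, and the log2 fold change was -0.88 (SE 0.21, unadjusted p = 0.0018, edgeR adjusted p = 0.11), or 54.4% of WT. With 1 library left out, where the spread comes from the other pair alone, it was called in all 4 fits with values from -1.15 to -0.65.

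Gm24727 stood at 9.21 and 8.10 CPM in the WT ileum (200 and 117 reads) and at 2.53 and 5.76 CPM in the knockout (27 and 54 reads). Both knockout libraries were lower, replicate 1 the more so. The log2 fold change was -1.13 (SE 0.31, unadjusted p = 0.0038, edgeR adjusted p = 0.15), or 45.9% of WT, and it was called without WT replicate 2 (-1.16) and without knockout replicate 2 (-1.77) but not without WT replicate 1 or knockout replicate 1.

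The other 2 rested on few reads. Gm26493 had 31 and 28 reads in the WT ileum and 5 and 10 in the knockout, with a log2 fold change of -1.17 (SE 0.47, unadjusted p = 0.031, edgeR adjusted p = 0.34). Its knockout replicate 1, with 5 reads, fell short of the count filter, so Gm26493 was tested on the strength of its WT libraries. Gm24119 had 49 and 33 reads in WT and 12 in each knockout library, with a log2 fold change of -0.92 (SE 0.40, unadjusted p = 0.042, edgeR adjusted p = 0.38). Gm26493 was called without knockout replicate 2 (-1.80) and in no other fit that left out a library, and Gm24119 in none of the 4. With 1 library left out the number of members called, all of them lower, was 1 without WT replicate 1 (2.19% of all genes lower, 1.92% higher) and 2 without WT replicate 2 (1.2% lower, 2.1% higher). It was 3 without knockout replicate 1 (2.84% lower, 3.95% higher) and 5 without knockout replicate 2 (5.37% lower, 5.09% higher). Among the 3 called without knockout replicate 1 was Gm24339, at -0.90, which was -0.39 with all libraries.

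Of the 10 most counted members, those other than Gm24336 and Gm24727 were not called in the ileum. Snora73b stood at 29.2 and 32.3 CPM in WT and 25.7 and 26.4 CPM in the knockout, lower in both knockout libraries, with a log2 fold change of -0.23 (SE 0.15, edgeR adjusted p = 0.57). Gm26448 had 9.35 and 11.1 CPM in WT against 8.99 and 8.44 CPM, also without overlap, and a log2 fold change of -0.22. Snord17 had 21.1 and 24.2 CPM in WT against 15.9 and 27.3 CPM, and its groups overlapped. Gm22422 was lower in both knockout libraries, at 1.59 and 2.13 CPM against 2.49 and 2.91 CPM, and did not pass the criterion (log2 fold change -0.54, SE 0.36). Gm25835, Snora78 and Gm26397 had log2 fold changes of 0.08, -0.25 and -0.16.

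Summed, the members stood at 157 and 155 CPM in the WT ileum (156 ± 1.10, SD, n = 2) and at 119 and 132 CPM in the knockout (125 ± 9.23, SD, n = 2), 0.803 times the WT mean. Box H/ACA members summed to 90.05 and 86.9 CPM in WT and 67.0 and 73.4 CPM in the knockout, and box C/D members to 47.1 and 49.0 CPM against 38.2 and 48.6 CPM. The other classes of short RNA did not move with the members here. Genes typed miRNA summed to 10521 and 5647 CPM in WT and to 27051 and 14870 CPM in the knockout, and misc_RNA, again mostly Rn7sk, to 5763 and 5612 CPM against 8364 and 4949 CPM. Fewer cells making an RNA and less of it per cell cannot be told apart in these bulk samples.

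**Figure D3:**
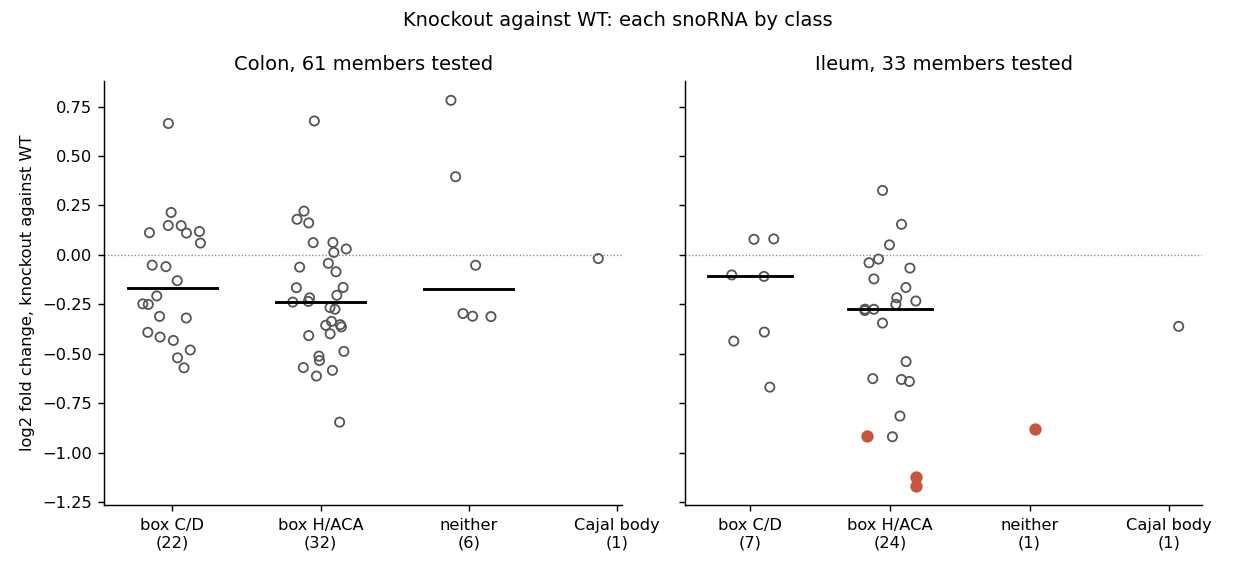
Log2 fold change of knockout against WT for each snoRNA tested, by class, with the number tested in brackets and the median as a bar (filled: a fold change of at least 0.5 either way at an unadjusted p under 0.05). None of 61 is filled in the colon, and 4 of 33 are filled in the ileum, all below 0.

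The difference between the 2 tissues in the effect of the knockout was tested in a fit of all 8 libraries with the mouse as a block. By edgeR's adjusted p under 0.05, 0 of the 61 members differed, against 0.00618% of the 16178 genes tested, which is 1 gene. By the criterion of the study 3 members differed, Gm24336, Snord118 and AF357399, each with the lower effect in the ileum (1.78% of all genes) and 0 with the higher (3.05%). For Gm24336 the difference was -0.61 (SE 0.20, unadjusted p = 0.020, edgeR adjusted p = 0.75) and for Snord118 -1.62 (SE 0.67, unadjusted p = 0.047). DESeq2 called 0 by either rule. Both knockout libraries lay above WT in the colon and below WT in the ileum for 2 of the 61 members, against 2.21% of all genes. Snord118 had 28 and 47 reads in the WT colon and 79 and 39 in the knockout colon, and 16 and 13 against 4 and 5 in the ileum.

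Setting a snoRNA against the gene that holds it gives a ratio within a library that no scaling changes. For each of the 4 members called in the ileum, the ratio to its host was lower in both knockout libraries than in both WT libraries. These 4 were chosen for being lower in the knockout, so this was largely set by the choice. Of the 33 members with a host that passed in the ileum, the ratio was lower without overlap for 13 and higher for 2. Such a ratio has no share over all genes to set beside it. The ratio of Gm24727 to Gsr was 1.08 lower in the knockout ileum on the log2 scale as a mean, with -6.22 and -6.41 in WT and -8.05 and -6.74 in the knockout, while Gsr itself stood at 685 and 691 CPM in WT and at 671 and 615 CPM in the knockout. The ratio of Gm24336 to Cwf19l1 was 0.38 and 0.68 in WT and 0.03 and -0.52 in the knockout. None of the 4 hosts was called.

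Snora73b went the other way. Its host Snhg3, counted over exons, fell from 5.71 and 4.57 CPM in the WT ileum to 1.78 and 1.82 CPM in the knockout (124 and 66 reads against 19 and 17), a log2 fold change of -1.51 (SE 0.31, unadjusted p = 5.0e-04, edgeR adjusted p = 0.061). The log2 ratio of Snora73b to Snhg3 was therefore 2.35 and 2.82 in WT and 3.85 and 3.86 in the knockout. In the colon Snhg3 had 5.14 and 3.87 CPM in WT and 4.08 and 3.78 CPM in the knockout.

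Over all members with a host, the median change of the ratio in the knockout was -0.17 on the log2 scale in the colon (56 members, 39 of them negative) and -0.18 in the ileum (33 members that passed in the ileum, 25 of them negative). Of 48 hosts tested in the colon 0 were called, with a median log2 fold change of -0.04. Of the 30 hosts tested for the 33 members in the ileum 1, Snhg3, was called, with a median of -0.03.

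**Figure D4:**
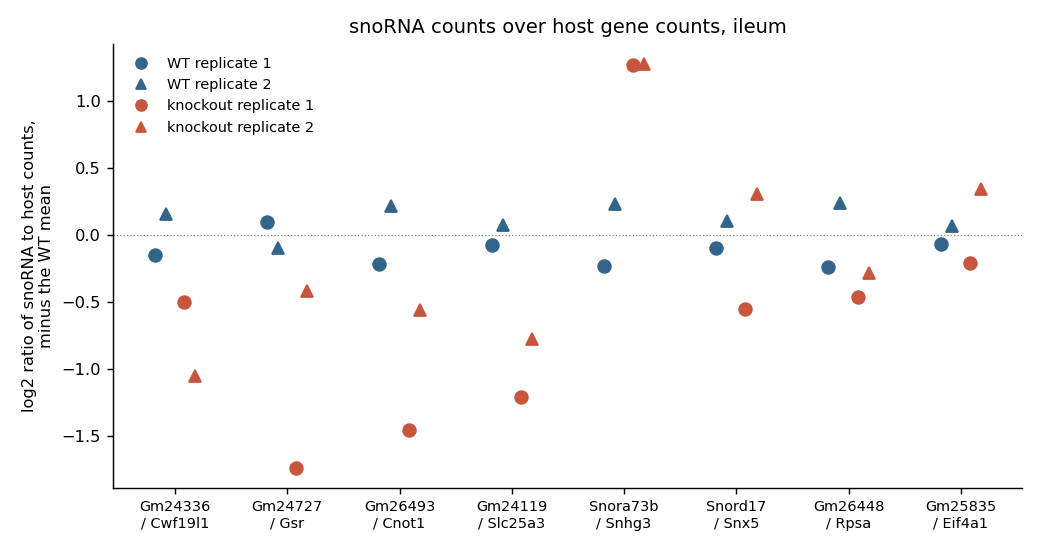
Log2 ratio of snoRNA reads to host gene reads in each ileum library, minus the mean of the 2 WT libraries. The knockout points lie below WT for Gm24336, Gm24727, Gm26493, Gm24119 and Gm26448, and 1.27 above the WT mean for Snora73b.

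In WT mice the ileum was compared with the colon of the same mice. Of the 61 members 7 were lower in the ileum and 1 was higher by edgeR's adjusted p under 0.05, against 18.3% of all 16178 genes lower and 19.5% higher. Although a snoRNA could enter through either tissue, all 61 passed in the colon and 25 passed there alone, so the direction was in part set by the choice of members. Among the 36 members that passed in both tissues, 6 were lower and 1 higher with a median log2 ratio of -0.20, and among the 25 that passed in the colon alone 1 was lower with a median of -0.63. With the mouse as a block, leaving out either library of a WT mouse takes that mouse out of the comparison, which then rests on 1 WT mouse. The median log2 ratio of the 61 members was -0.54 without either library of WT replicate 1 and -0.36 without either of WT replicate 2. It was -0.45 or -0.46 without 1 of the knockout libraries, which enter the fit through the spread and the mouse block.

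The member with the higher level in the ileum was Gm24727, at 9.21 and 8.10 CPM in the WT ileum against 1.78 and 3.43 CPM in the WT colon, a log2 ratio of 1.76 (SE 0.40, edgeR adjusted p = 0.014). Its host Gsr was also higher in the ileum, by 2.28 on the log2 scale (SE 0.12, edgeR adjusted p = 2.6e-05). Gm25291, which is nearly the same in sequence, had 1.84 and 1.38 CPM in the WT ileum and 3.10 and 2.59 CPM in the WT colon, a log2 ratio of -0.81 that did not pass (SE 0.32, edgeR adjusted p = 0.088). Its host Sec24a was higher in the ileum by 1.42 (SE 0.10, edgeR adjusted p = 7.8e-05), so that the ratio of Gm25291 to its host was 2.25 lower there. Gm25117 had 1.20 and 0.21 CPM in the ileum and 1.73 and 2.90 CPM in the colon, on 26 and 3 reads in the ileum.

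**Figure D5:**
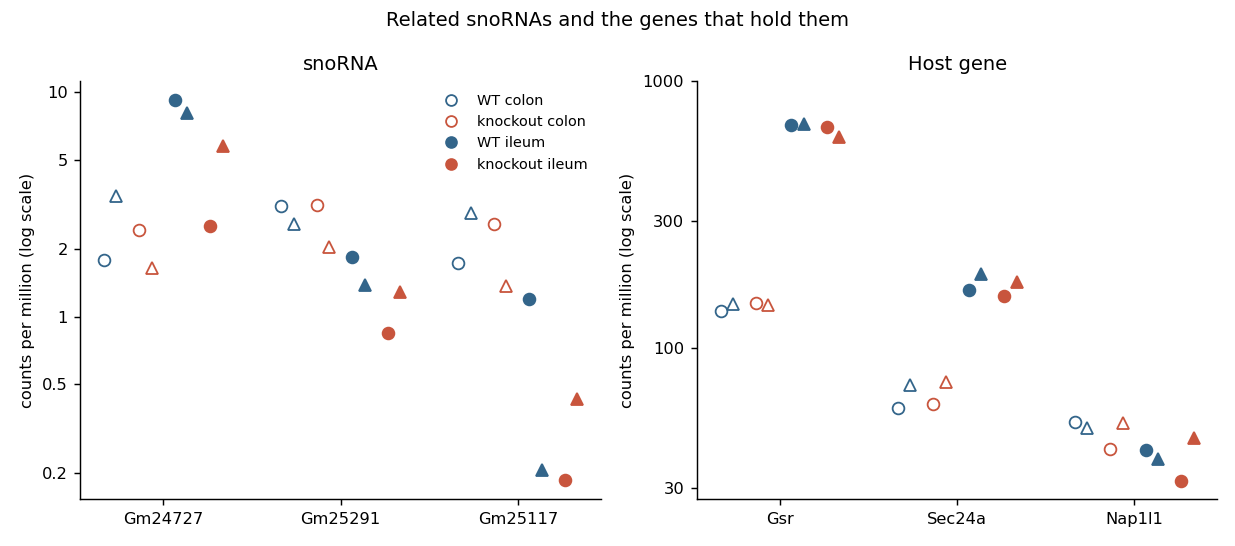
CPM (log scale) in each library of 3 related snoRNAs on the left and of their hosts on the right (open: colon; filled: ileum). Gm24727 is higher in the WT ileum than in the WT colon, as is its host Gsr, while Gm25291 is lower in the ileum and its host Sec24a is higher there.

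The 5 members with the largest fall in the WT ileum that passed were Gm23639, Gm22154, Gm22748, Gm23442 and Gm25835. Gm22154, in the poly(A)-binding protein gene Pabpc4, stood at 3.99 and 4.88 CPM in the colon and 1.84 and 1.178 CPM in the ileum, a log2 ratio of -1.52 (SE 0.37, edgeR adjusted p = 0.017), and Pabpc4 itself differed by -0.28 (adjusted p = 0.090). Gm25835, in the gene of the translation helicase Eif4a1, had 9.08 and 11.2 CPM in the colon against 5.44 and 5.40 CPM, a log2 ratio of -0.89 (SE 0.27, edgeR adjusted p = 0.042). Gm22748, in the ornithine decarboxylase gene Odc1, had a log2 ratio of -1.34 and its host one of -0.58 (edgeR adjusted p = 0.0074). Gm23639, in Epb41l4aos, passed the limit of 40 in the colon alone, so its lower ileal level is in part what chose it, and is a description. It and Gm23442, in Prrc2a, had log2 ratios of -1.55 and -1.29 on 3 to 23 reads in each WT ileum library. Gm24336 and Gm24339 also passed, with ratios of -0.57 and -0.78. In the knockout mice, in the same fit, 8 members were lower in the ileum than in the colon and 0 higher (18.3% and 19.4% of all genes). Of these 8, 2 had passed in the colon alone, the knockout colon libraries also took part in the choice of members, and Gm24727 had a log2 ratio of 0.99 (edgeR adjusted p = 0.14).

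The genes of the proteins that work with snoRNAs were compared in the same fits, where 3.67% of all genes were lower and 3.04% higher in the colon and 3.48% and 3.87% in the ileum. Of the 4 box C/D core proteins (Fbl, Nop56, Nop58, Snu13) and the 4 box H/ACA core proteins (Dkc1, Nop10, Nhp2, Gar1), 0 were called in either tissue, and Fbl stood at 20.4 and 19.6 CPM in the WT colon against 18.9 and 19.3 CPM in the knockout. Of 11 assembly factors 0 were called in the colon and 1, Znhit6, was higher in the knockout ileum (log2 fold change 0.62, edgeR adjusted p = 0.35). Of 26 genes of ribosome synthesis 0 were called in the colon and 1, Rrp9, was higher in the ileum (0.55, edgeR adjusted p = 0.21). Of 17 genes of RNA modification and decay tested 0 were called in either tissue.

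Among 28 known snoRNA host genes tested, Hspa8, a chaperone gene, was higher in the knockout colon (log2 fold change 0.60, edgeR adjusted p = 0.30) and in the knockout ileum (0.65, adjusted p = 0.23). In the ileum 4 of the 28 were lower, Snhg3, Snhg4, Rpl13a and Taf1d, against 3.48% of all genes. Taf1d, a subunit of a polymerase I factor, stood at 121 and 128 CPM in WT and 90.1 and 82.3 CPM in the knockout (-0.52, edgeR adjusted p = 0.14), and Snhg4 at 8.61 and 7.41 CPM against 5.62 and 4.80 CPM (-0.62, edgeR adjusted p = 0.29). None of these passed an adjusted p under 0.05.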

How the data were processed

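Epithelial RNA of the colon and ileum of 4 mice gave 8 libraries. Per the labels and the study's methods, the authors aligned reads with STAR 2.6.1a to mm10 and counted uniquely mapped reads over GENCODE exons with featureCounts, and the deposited values used here are these raw counts per gene. The deposited normalized counts, a signal that the authors had divided by DESeq2 1.18.1 size factors, were not used, and neither were their gene lengths except for levels per kilobase. The strand setting of the counting is not given in the sources used here. A gene listed in one table alone was taken as 0 in the other, and 26 symbols turned into dates were restored from gene identifiers.

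Counts were tested with edgeR 4.0.16 (quasi-likelihood test in R 4.3.3, filterByExpr with a minimum count of 10, TMM, Benjamini-Hochberg adjustment over all genes tested) within each tissue with the replicate number as a block, as the study's model had a term for harvest, and over the 8 libraries with the mouse as a block, since headers tie colon and ileum to the same mice. The labels do not tie the replicate number to a harvest. The code was tested on simulated data. DESeq2 1.42.0, no block, other scalings and filters, and leaving out each library were alternatives. SE is the absolute log2 fold change over the square root of F. Total counts were 17385217, 20393824, 16883951 and 19437275 in the colon (WT 1 and 2, knockout 1 and 2) and 22984283, 14878989, 11768205 and 11571061 in the ileum.

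Hosts are same-strand genes of GENCODE M21 (GRCm38) that span the snoRNA. Relatives were found by global alignment (Biopython 1.88). Named were the 10 members with the highest mean CPM, up to 8 called per direction in each genotype comparison, any at adjusted p under 0.05, 5 per direction in the WT tissue comparison, 3 on each side of the limit of 40, hosts and Ddx5. Relatives of named members, and members called without 1 library, were chosen after their values were seen. Lists covered core and assembly proteins, ribosome synthesis, known hosts, short structured RNAs, RNA decay and cell type markers. The members and lists were chosen with earlier results of these data known. In the main fits within a tissue, p-values measure how far the difference between genotypes varied over the 2 replicate numbers. Over the 8 libraries they measure how far the difference between tissues varied over the 2 mice of a genotype.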

Additional observations from a re-analysis of the deposited data

Results flagged for a closer look

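In 2 of the 61 members both knockout libraries lay above both WT libraries in the colon and below both in the ileum, as did 2.21% of all genes tested. Gm25945, in Khdc4, had log2 fold changes of 0.18 in the colon and -0.81 in the ileum, on 14 to 19 reads per colon library and 3 to 20 per ileum library. Its knockout ileum libraries fell short of the count filter, so Gm25945 was tested in the ileum on the strength of its WT libraries. That entry favoured a lower level in the knockout. The difference of the effects was -1.025 (edgeR, unadjusted p = 0.17, adjusted p = 0.85). AF357399, in the ribosomal protein gene Rps16, had 6 and 9 reads in the WT colon and 11 and 14 in the knockout colon, and 16 and 5 against 2 and 2 in the ileum. Its difference was -2.195 (edgeR, unadjusted p = 0.049, adjusted p = 0.78). Neither passed after adjustment, and AF357399 is the member nearest to the limit on counts.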

How the results depend on the processing

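In the colon 0 members were called with or without the replicate block, by DESeq2 and under every other scaling and filter tried, and 0 to 14 with 1 library left out (0 to 10 at adjusted p under 0.05). In the ileum 4 members were called with the replicate block, 3 without it, 2 by DESeq2, 2 in 1 fit of the 8 libraries, 2 where the limit on the log2 fold change was 1, and 1 to 5 with 1 library left out, while at adjusted p under 0.05 it was 0, or 2 with no filter on low counts. For the difference between tissues, 3 by the study's criterion became 1 without the replicate block, 0 by DESeq2, 6 with no filter and 0 to 8 with 1 library left out (0 to 1 at adjusted p under 0.05). For WT ileum against WT colon, 8 at adjusted p under 0.05 became 6 without the block, 3 by DESeq2, 21 with no filter, 1 to 21 with 1 library left out, and 8 in knockout mice, an alternative chosen after seeing the data. By the study's criterion DESeq2 called 5 there, and leaving out 1 library gave 3 to 23. The cause of these changes was not tested. Deviations of WT and knockout libraries with the same number had a correlation of 0.0066 in the colon and 0.24 in the ileum across genes. Whether a number marks a shared harvest is said neither by the labels nor by the study. The colon and ileum of 1 mouse had a correlation of 0.14 in both genotypes.

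With 1 library left out the median log2 fold change of the members ranged from -0.54 to 0.13 in the colon, -0.47 to -0.26 in the ileum, -0.58 to 0.13 for the difference between tissues and -0.54 to -0.36 between WT tissues. Named members changed sign in the colon, from -0.68 to 0.98 for Snora73b, -0.65 to 0.014 for Gm24336, -0.96 to 0.48 for Gm26448, -0.53 to 0.10 for Gm24339, -1.19 to 0.15 for Snora78, -0.78 to 0.17 for Gm24727, -1.43 to 0.29 for Gm26397, -0.96 to 0.45 for Gm22422, -0.20 to 0.68 for Gm26493 and -0.55 to 0.56 for Gm24119. In the ileum the ranges were -0.50 to 0.28 for Snord17, -0.90 to 0.013 for Gm24339, -0.15 to 0.32 for Gm25835, -0.51 to 0.050 for Snora78 and -0.47 to 0.21 for Gm26397.

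Scaled by raw library totals the members summed to 235 and 258 CPM in the WT colon, 148 and 150.5 in the WT ileum and 108 and 107 in the knockout ileum. Scaled by protein-coding counts alone the sums were 273 and 297 CPM in the WT colon, 166 and 168.5 in the WT ileum and 119.6 CPM in knockout ileum replicate 2. Without Snora73b they were 166.5 and 183 CPM in the WT colon, 127.5 and 123 CPM in the WT ileum, and 92.85 and 105 CPM in the knockout ileum. In the ileum 33 of the 61 members had reads enough to be tested, and depth and level were not separated there.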

Other observations

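Short structured RNAs that are not snoRNAs were measured beside the members. Of 9 listed, 8 were in the tables, and 0 of the 8 tested in the colon and 1 of the 6 tested in the ileum passed the criterion of the study. That was Terc, the RNA of telomerase, which ends in an ACA box and binds dyskerin like box H/ACA snoRNAs. It stood at 2.39 and 3.46 CPM in the WT ileum and 7.11 and 4.70 CPM in the knockout, a log2 fold change of 1.04 (SE 0.32, edgeR adjusted p = 0.21). In the colon it had 5.30 and 5.89 CPM in WT and 8.65 and 3.96 CPM in the knockout, on both sides of WT as for 16 of the 32 box H/ACA members. Rn7sk, which holds back transcription elongation, made up most of the list, with 9743 and 9254 CPM in the WT colon, 13287 and 8269 CPM in the knockout colon, 5278 and 5188 CPM in the WT ileum and 7825 and 4443 CPM in the knockout ileum.

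The genes named Scarna, 9 in the tables with Scarna9 among them, summed to 175 and 159 CPM in the WT colon and 224 and 150 CPM in the knockout colon, and to 100 and 89.2 CPM in the WT ileum and 124 and 81.1 CPM in the knockout ileum. None of the 5 tested in the colon or the 4 tested in the ileum was called. Scarna6 stood at 6.14 and 10.5 CPM in the WT colon and at 22.1 and 8.65 CPM in the knockout colon.

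Snora57, which has no annotated host, was the 1 member of the 33 tested in the ileum with both knockout libraries above WT. It had 2.44 and 2.01 CPM in WT and 2.71 and 2.88 CPM in the knockout (log2 fold change 0.33, SE 0.34, edgeR adjusted p = 0.77). Over the 61 members the log2 ratio of knockout colon replicate 1 to replicate 2 had a Spearman rank correlation of 0.23 with length and 0.26 with GC content, given as a description of members that share these 2 libraries.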
